A study of Saccharomyces cerevisiae with 3 samples.

Results

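The aryl alcohol dehydrogenase (AAD) genes of baker's yeast were examined on 3 two-colour arrays. The family was taken as the genes whose spots carry the symbol AAD3, AAD4, AAD6, AAD10, AAD14 or AAD15, and all 6 were found, with 12 spots, among 5539 named genes. On every slide a strain lacking YAP1 (Cy3 channel) was set against wild type (Cy5 channel), and cells of both strains had spent 1 h in 0.2 mM arsenite, As(III). No unexposed cells are part of the comparison, so it sets the strains against each other under arsenite and holds no response to arsenite itself. The dyes were in the same orientation on all 3 arrays, and a dye effect of a gene and a difference between the strains cannot be told apart.

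The AAD proteins belong to the aldo-keto reductase superfamily, enzymes that reduce aldehydes and ketones to alcohols with NADPH. They were named for their likeness to an aryl alcohol dehydrogenase of the lignin-degrading fungus Phanerochaete chrysosporium, and their substrates in yeast are poorly known. Yap1 is a transcription factor that moves into the nucleus under oxidative and metal stress and activates genes of thiol and peroxide defence and of detoxification. AAD4 and AAD6 have been described as induced by oxidants in a Yap1-dependent way.

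The family is spread over 6 chromosomes and lies close to chromosome ends. By RefSeq's gene annotation (assembly R64), AAD3 (YCR107W) on chromosome III and AAD15 (YOL165C) on chromosome XV have 1 gene between them and the nearer end. AAD4 (YDL243C) on chromosome IV and AAD10 (YJR155W) on chromosome X have 5, AAD14 (YNL331C) on chromosome XIV has 6 and AAD6 (YFL056C) on chromosome VI has 10. The genes also differ in length. AAD14 spans 1131 bases, AAD6 1127, AAD3 1092 and AAD4 990, while AAD10 spans 867 and AAD15 only 432. AAD6 is annotated as a pseudogene and carries YFL057C, the open reading frame once listed apart as AAD16, as a synonym, so AAD6 and AAD16 are 1 entry here. The genes resemble each other in sequence, and a spot of one can take up RNA of another. How much of each value this accounts for was not tested.

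The values are log ratios of the channels of an array, averaged over the 2 spots of a gene, minus the median of that array over the named genes. The sources used here give neither the base of the logarithm nor which strain is the numerator. The sample titles name the mutant first, as mutant vs wild type, which does not state the order of the ratio. The high side and the low side below thus mean above and under the array median. Neither side is assigned to a strain, and no fold change is given. YAP1, the deleted gene, lay at −1.43, −0.22 and −0.74 on replicates 1, 2 and 3, and averaged −0.80 ± 0.61 (SD, n = 3; limma adjusted p = 0.0323). It was near the array median on replicate 2 and did not settle the direction. Nothing in the labels tells whether the 3 hybridisations used separate cultures, so the p-values cover only the spread between arrays, possibly technical, and 3 arrays limit the precision.

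Within the family, AAD4 stood apart from the other members. It lay on the high side of all 3 arrays, at 2.05, 1.87 and 1.49 on replicates 1, 2 and 3, and averaged 1.81 ± 0.29 (SD, n = 3). Of the 5 remaining genes, AAD15 and AAD14 passed the test on the low side, and AAD10, AAD6 and AAD3 did not pass. So 1 of 6 members was called high, where 16.0% of the 5539 genes were, and 2 of 6 were called low, where 12.5% of all genes were. Together 3 of 6 passed a limma adjusted p of 0.05, against 28.5% of all genes. The median of the 6 means was −0.52, while the median over all genes was −0.02. On all 3 arrays 5 of 6 members kept 1 sign, as did 58.9% of all genes, and 4 of 6 were under the median on all 3, against 29.2%.

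**Figure D1:**
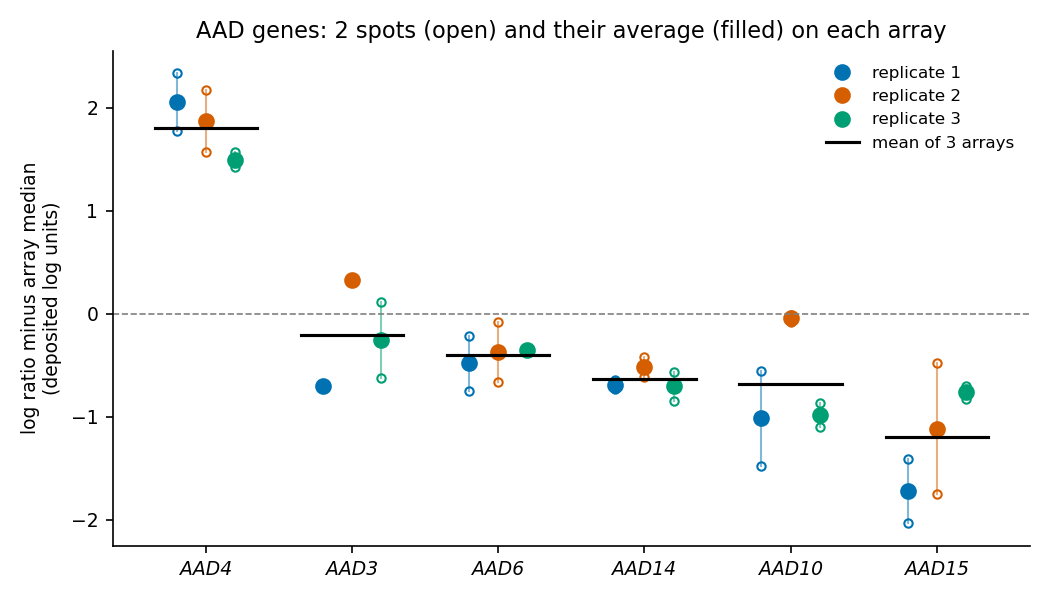
Log ratio minus the array median (vertical axis, deposited log units) for each AAD gene on the 3 arrays, with open points for the 2 spots, filled points for their average and a black line for the mean of the 3 arrays. AAD4 lies between 1.49 and 2.05 on every array, and the highest value of any other member is 0.33, for AAD3 on replicate 2.

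AAD4 was the member on the high side, by both of its spots. The first spot lay at 1.78, 2.17 and 1.42 and the second at 2.33, 1.57 and 1.57 on replicates 1, 2 and 3. Every one of these 6 spot values was above every value of the other members. The limma 95% interval of the mean ran between 1.31 and 2.31, and the adjusted p was 4.89e-05. AAD4 ranked 140th of 5539 genes by its mean, or percentile 97.5, and at percentile 98.0, 96.7 and 96.7 on the 3 arrays. Of the 139 genes above it, 102 carry symbols of ribosomal proteins, and the rank counts them. The share of such symbols among the 5539 genes is not given here.

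AAD15 was the lowest member by its mean. It lay at −1.72, −1.12 and −0.76 on replicates 1, 2 and 3, averaging −1.20 ± 0.49 (SD, n = 3), a 95% interval between −1.73 and −0.67 and a limma adjusted p of 0.00249. All 3 arrays were on the low side, and only 104 genes had a lower mean. Its spots differed more than those of any other member: the first lay at −2.03, −1.75 and −0.70 and the second at −1.41, −0.48 and −0.82. Without replicate 3 the mean was −1.42 and no longer past the threshold (limma adjusted p = 0.0566). On replicate 3 AAD10 lay lower, at −0.99, than the −0.76 of AAD15. AAD15 is the shortest gene of the family.

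AAD14 and AAD10 had like means on the low side, and they lay at the threshold. AAD14 was at −0.69, −0.52 and −0.71 on replicates 1, 2 and 3, averaging −0.64 ± 0.11 (SD, n = 3; limma adjusted p = 0.0473). Its values were close together on all arrays, and the call was lost without any one of the replicates, where the adjusted p was between 0.113 and 0.184. AAD10 was at −1.02, −0.05 and −0.99, averaging −0.68 ± 0.55 (SD, n = 3; limma adjusted p = 0.0563). It was thus far from the median on replicates 1 and 3 and at the median on replicate 2. Without replicate 2 its mean was −1.001, with a limma adjusted p of 0.0204, on the low side. The 95% intervals of the means, −1.12 to −0.15 for AAD14 and −1.22 to −0.14 for AAD10, covered nearly the same range.

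AAD6 and AAD3 did not pass. AAD6, which has been described together with AAD4 as Yap1-dependent, was at −0.48, −0.37 and −0.36 on replicates 1, 2 and 3. Its mean of −0.40 ± 0.07 (SD, n = 3) had the smallest spread between arrays in the family, and its limma adjusted p was 0.193. It moved with the spots used, at −0.23 with first spots and −0.64 with second spots, and was not called with either. The 95% interval of AAD6 ran between −0.89 and 0.08 and did not reach that of AAD4. AAD3 was at −0.70, 0.33 and −0.26, averaging −0.21 ± 0.52 (SD, n = 3; limma adjusted p = 0.554). Its 2 spots were both above the median on replicate 2, at 0.35 and 0.30, and it was the only member with a sign that changed between arrays. In the order of the means, AAD4 was followed by AAD3, AAD6, AAD14, AAD10 and AAD15.

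The members were also compared in pairs within each array, where centring on the array median cancels out. AAD4 lay above each of the others on all 3 arrays, by 2.02 ± 0.65 over AAD3, 2.21 ± 0.34 over AAD6, 2.45 ± 0.28 over AAD14, 2.49 ± 0.58 over AAD10 and 3.01 ± 0.76 over AAD15 (SD, n = 3 each). The smallest difference on any array was 1.54, from AAD3 on replicate 2. Among the 10 pairs without AAD4, the mean difference was between 0.04 (AAD14 minus AAD10) and 0.99 (AAD3 minus AAD15), and in 5 of the 10 the sign was the same on every array. Neighbours in the order below AAD4 mostly did not differ beyond their spread: AAD3 minus AAD6 was 0.19 ± 0.47, and AAD10 minus AAD15 was 0.52 ± 0.67 (SD, n = 3 each). AAD6 minus AAD14, at 0.23 ± 0.11 (SD, n = 3), was small and of the same sign on all arrays. These differences take no account of where on the slide a spot lies, which is described below. The exact two-sided sign-flip test over 3 arrays cannot give a p below 0.25, and each of the 10 pairs of 15 with an unchanged sign had this p and an adjusted p of 0.375 over the 15 pairs.

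Over all genes, the ratio was lower where the 2 spots of a gene differed more, so each member was set beside genes of like scatter. In 10 bins of genes ordered by the SD between repeated spots, the median ratio was 0.60 in the bin with the smallest scatter and −0.52 in the bin with the largest. AAD4, with a scatter of 0.340 near the median of 0.320 over all genes, was at percentile 99.6 of its bin, whose median ratio was −0.05. AAD15 had the largest scatter of the family, 0.578, and the median of its bin was −0.30. It was at percentile 3.25 there. AAD14 had the smallest scatter, 0.144, in a bin with a median of 0.32, and was at its percentile 5.42. AAD10 was at percentile 9.75 of its bin, AAD6 at 23.1 and AAD3 at 31.6. The part of spot scatter in these values was not tested further than by removing its trend, by which AAD4 lay at 1.79, AAD14 at −1.14 and AAD15 at −0.88, all 3 called. With the trend removed, AAD14 was the lowest member in place of AAD15.

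**Figure D2:**
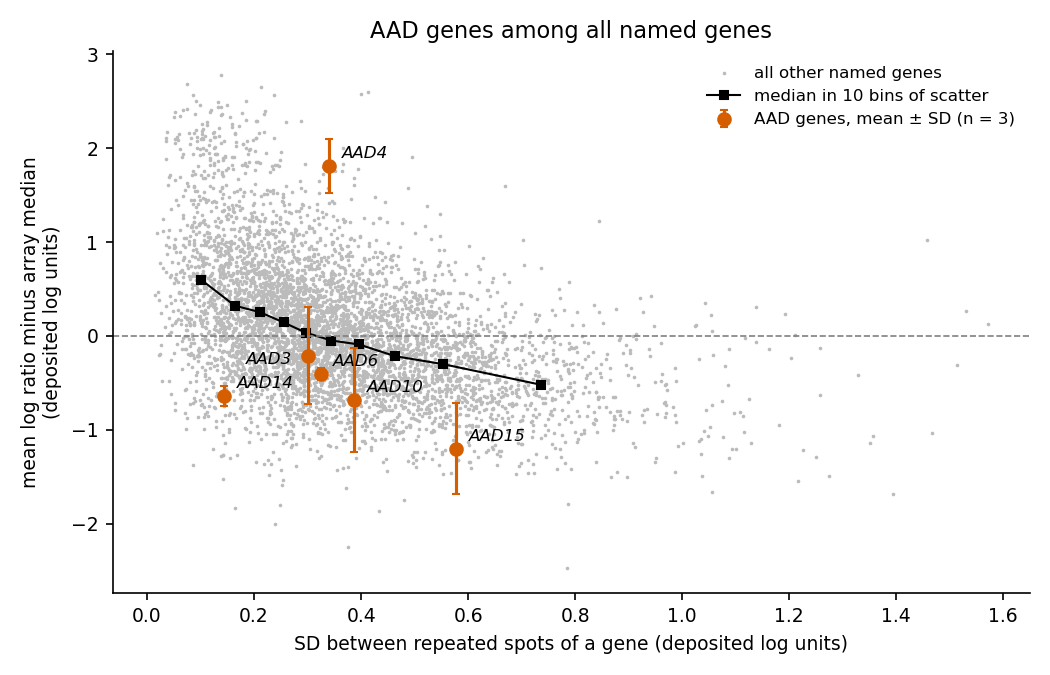
Mean log ratio minus the array median (vertical axis) against the SD between repeated spots (horizontal axis), both in deposited log units, for all named genes (grey) and the AAD genes (orange, mean ± SD, n = 3), with the median in 10 bins of scatter in black. AAD4 lies at 1.81 where genes of like scatter have a median of −0.05, and the other 5 means lie below the black line.

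The level that the ratios are read against decides on which side of 0 a member lies. Nearly all genes lay below 0 as deposited, between 96.9 and 98.9% of them on an array. As deposited, AAD4 was at −0.05, −0.43 and −0.09 on replicates 1, 2 and 3, close to 0, averaging −0.19 (limma adjusted p = 0.528). The other members were between −2.21 (AAD3) and −3.20 (AAD15) on average, and all 5 were called below 0. A further level is given by 192 spot pairs without a gene symbol, at block positions that hold none in any block. Of these positions, only those with a median below −0.5 after centring on every array were kept. The pairs thus lay low by selection, and the other spots among the 1918 without a symbol were left out. Below, the spots without a gene symbol are these pairs. Set against the median of those pairs, AAD4 was at 3.04, 3.08 and 2.37, averaging 2.83 ± 0.40 (SD, n = 3). AAD3 (0.82) and AAD6 (0.62) were called above them, and AAD14 (0.39), AAD10 (0.35) and AAD15 (−0.17) were not called on either side. At this level 4170 of the 5539 genes were called high and 10 low. AAD4 had a mean above all 192 pairs, while AAD15 was at percentile 33.3 among them, AAD10 at 82.3, AAD14 at 82.8, AAD6 at 93.2 and AAD3 at 96.4. These levels shift all members of an array alike, so they leave the order of the members as it was. Apart from AAD4, the members lay within the range of these pairs, which were picked for low values.

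**Figure D3:**
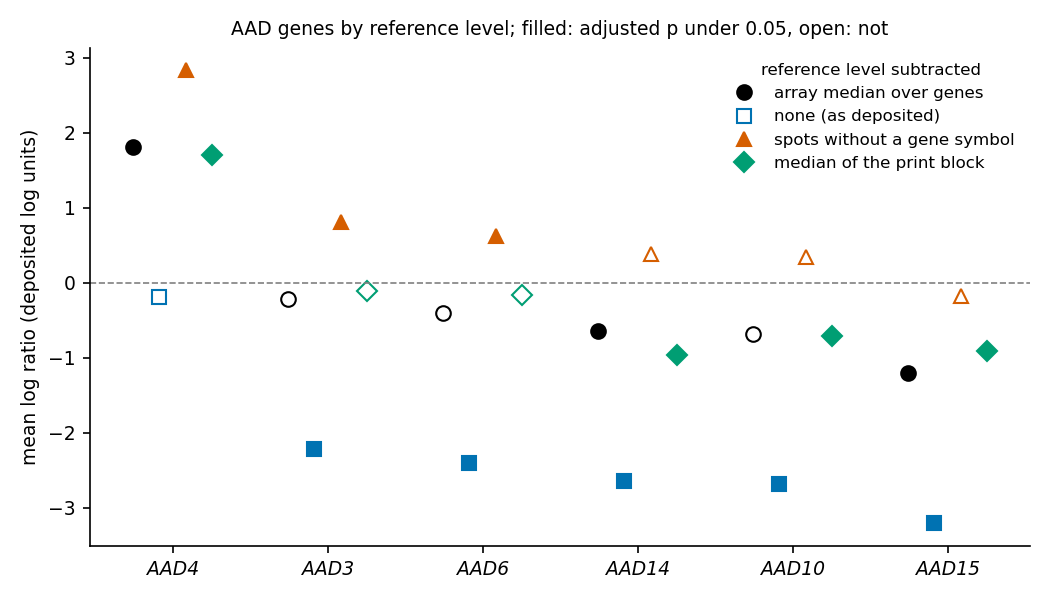
Mean log ratio of each AAD gene over 3 arrays (vertical axis, deposited log units) against 4 levels: the array median over genes, no level (as deposited), the spots without a gene symbol and the median of the print block. The spots without a gene symbol were picked for low values. Filled symbols have a limma adjusted p under 0.05 and open symbols do not. AAD4 lies at 1.81, −0.19, 2.83 and 1.71 by these levels. All but the print block shift the members of an array alike and cannot change their order.

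The position of a spot on the slide gave smaller shifts. The spots of each member lay side by side in 1 print block, and the 6 genes were in 6 different blocks. The block of AAD4 had a median of −0.17, 0.32 and 0.13 on the 3 arrays, and centring on blocks left AAD4 at 1.71 (limma adjusted p = 3.54e-04). The block of AAD15 was low, at −0.28, −0.48 and −0.14, and AAD15 lay at −0.90 with block centring (adjusted p = 0.0154). The block of AAD14 was high, at 0.33, 0.51 and 0.13, and AAD14 lay at −0.96 (adjusted p = 0.00583), lower than AAD15. AAD10 was then called as well, at −0.71 (adjusted p = 0.0303), while AAD6 (−0.16) and AAD3 (−0.10) lay nearer to 0 than by the array median and were not called. The gap between AAD6 and AAD14 was thus larger than the 0.23 found without block centring.

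The chromosomal neighbourhoods of the family repeat. AAD4, AAD6, AAD10 and AAD14 each lie next to a gene of the THI5 family, which makes the pyrimidine part of thiamine and whose copies THI5, THI11, THI12 and THI13 are nearly identical in sequence, so that their single values are uncertain. AAD6 and AAD14 also have a pyridoxine gene, SNZ3 and SNZ2, as the next gene but one, and AAD4 and AAD10 a hexose transporter gene, HXT15 and HXT16. THI13, beside AAD4, was at −1.06, −1.03 and −0.12 on replicates 1, 2 and 3, averaging −0.74 ± 0.53 (SD, n = 3; limma adjusted p = 0.0399). AAD4 thus lay above its THI neighbour by 3.12, 2.90 and 1.62. The other 3 members lay nearer to theirs: AAD6 minus THI5 was −0.22 ± 0.41, AAD10 minus THI11 was 0.61 ± 1.39 and AAD14 minus THI12 was 0.31 ± 0.59 (SD, n = 3 each). None of these 3 differences kept its sign on all arrays.

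The THI neighbours of AAD10 and AAD14 were themselves on the low side. THI11 was at −1.29 ± 0.84 and THI12 at −0.95 ± 0.65 (SD, n = 3 each; limma adjusted p = 0.0040 and 0.0153). Their repeated spots differed widely, with a scatter of 1.25 and 1.18. THI5, beside AAD6, did not pass at −0.19 (adjusted p = 0.577). Of the nearest genes on the other sides, BDS1, a sulfatase gene near AAD15, was at −0.83 ± 0.11, and AGP3, an amino acid permease gene beside AAD6, was at −0.70 ± 0.44 (SD, n = 3 each), and both were called low. YJR154W beside AAD10 (−0.67), RDS1, a zinc cluster transcription factor gene beside AAD3 (−0.32), the histone deacetylase gene RPD3 beside AAD14 (−0.11) and YDL241W near AAD4 (0.34) did not pass. With 2 genes taken on each side, 18 neighbours were measured and 4 were not analysed here. Of the 18, 7 were called low and 0 high, with a median of −0.62, while 12.5% of all genes were called low. The 7 include THI11, THI12 and THI13, nearly identical copies that may not count as separate calls. SNZ2 (−0.77) and HXT16 (−0.67) are also among the 7. Without replicate 3 none of the 18 was called by limma, where 323 of the 5539 genes were, 48 of them low. With first spots only 1 was called, where 1014 genes were, 413 of them low. With the scatter trend removed, 1 was called high and 2 low, where 585 genes were called high and 510 low. At an unadjusted p under 0.05 and with all arrays, 10 of the 18 passed, as did 40.8% of all genes. Set against the spots without a gene symbol, 8 of the 18 were called high and 0 low, where 4170 of the 5539 genes were called high.

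**Figure D4:**
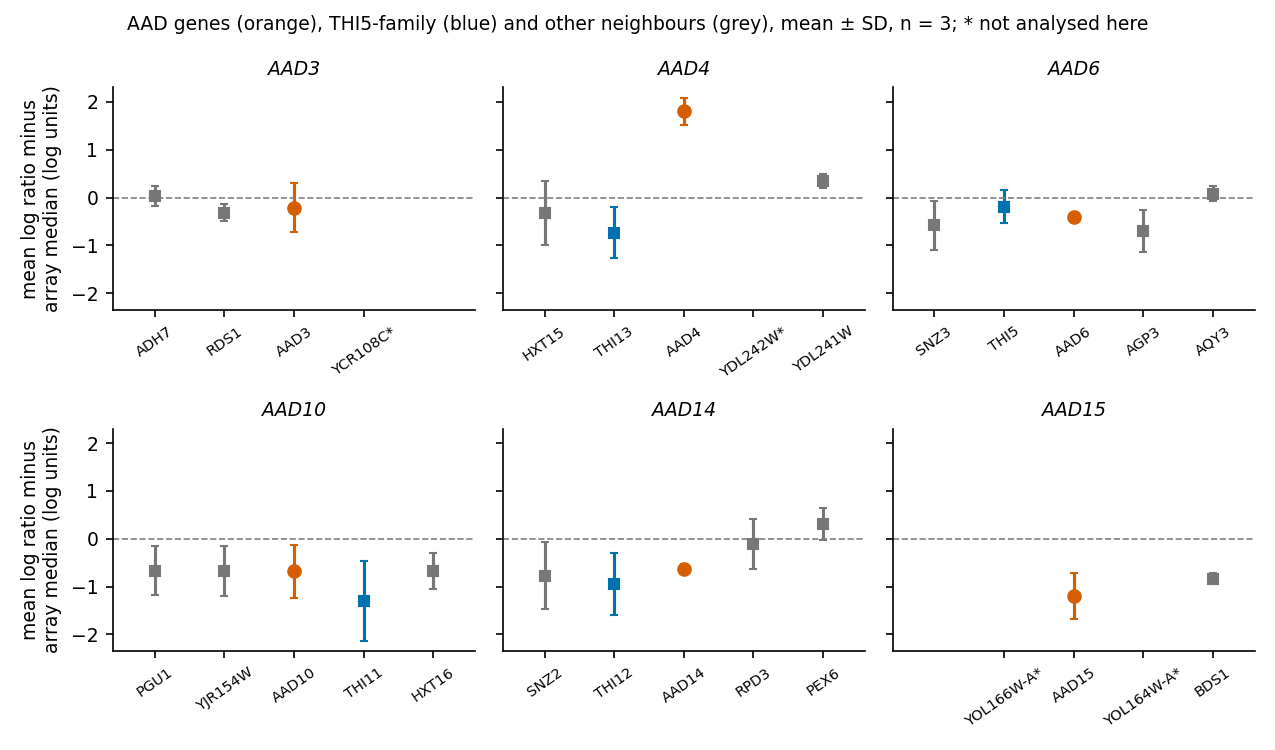
Mean log ratio minus the array median (vertical axis, deposited log units, ± SD, n = 3) for each AAD gene (orange) and up to 2 genes on either side in chromosome order (horizontal axis, not to scale), with THI5-family genes in blue, other neighbours in grey and an asterisk for genes not analysed here. AAD4 lies at 1.81 between THI13 at −0.74 and YDL241W at 0.34, while no other member has a mean above 0.

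Of 8 other aldo-keto reductases listed, AAD16 is 1 entry with AAD6 and 7 were measured. Of these 2 were called low and 0 high, where 12.5% of all genes were called low and 28.5% on either side, so the share called was near that of all genes. GCY1, a glycerol dehydrogenase gene, was at −1.91, −0.96 and −1.73 on replicates 1, 2 and 3 and averaged −1.53 ± 0.50 (SD, n = 3; limma adjusted p = 4.17e-04). YDL124W, for an alpha-keto amide reductase, was at −0.85 ± 0.42 (SD, n = 3; adjusted p = 0.0173). The other 5 did not pass: GRE3, the aldose reductase gene (−0.55), YPR1 (−0.48), YPL088W, a putative aryl alcohol dehydrogenase (−0.44), ARA1, the arabinose dehydrogenase gene (−0.42), and YJR096W (−0.17). All 7 means were below 0, with a median of −0.48. Without replicate 3 none was called by limma, where 323 of the 5539 genes were, 48 of them low. At an unadjusted p under 0.05 and with all arrays, 3 of the 7 passed, close to the 40.8% of all genes. Set against the spots without a gene symbol, 1 was called high and 0 low, where 4170 of the 5539 genes were called high. The highest of the 7 means, −0.17, was far below the 1.81 of AAD4.

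Fusel and aromatic alcohols are made in yeast by the Ehrlich pathway, in which an amino acid is transaminated, decarboxylated to an aldehyde and reduced to an alcohol. Of 20 genes listed for it, all measured, 7 were called high, 1 was called low and 12 did not pass, with a median of 0.26. Over all genes, 16.0% were called high and 12.5% low. The high genes were the alcohol dehydrogenase genes ADH5 (1.60 ± 0.49), ADH3 (1.54 ± 0.41) and ADH1 (1.49 ± 0.28), the aminotransferase genes BAT1 (1.58 ± 0.49) and ARO8 (1.48 ± 0.32) and the pyruvate decarboxylase genes PDC5 (0.84 ± 0.50) and PDC1 (0.83 ± 0.44; SD, n = 3 each). The limma adjusted p of these was between 2.88e-04 (ADH5) and 0.0215 (PDC5). BAT2, the cytosolic branched-chain aminotransferase gene, was called low at −0.81 ± 0.37 (SD, n = 3; limma adjusted p = 0.0207). AAD4 had a larger mean than any of the 20 genes. All 8 called genes had a scatter between repeated spots of at most 0.154, below the 0.340 of AAD4, in the range where genes in general lay high. BAT2, called low, was among them with a scatter of 0.112. With the scatter trend removed, 5 of the 20 were called high and 1 low, and all 6 were among these 8 calls. Over the 5539 genes, 585 were then called high and 510 low. The part of scatter in these calls was not tested further. Without replicate 2, and likewise without replicate 3, 5 were called high and 0 low. Over all 5539 genes, 538 were called high and 351 low without replicate 2, and 275 high and 48 low without replicate 3.

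The genes most like each called member were sought by Euclidean distance over the 3 arrays, which is a description of 3 values and no evidence of shared function. LYS21, a homocitrate synthase gene of lysine synthesis, lay at a distance of 0.114 from AAD4, with 1.99, 1.95 and 1.55 on replicates 1, 2 and 3, and ESL2 at 0.142. AAD15 was nearest to AUS1, a sterol uptake transporter gene (0.0492), and to YAR061W (0.104). AAD14 was nearest to GAD1, the glutamate decarboxylase gene (0.0184), and to PZF1, for transcription factor IIIA (0.0264).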

How the data were processed

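Total RNA of a yap1 deletion mutant (Cy3) and of wild type (Cy5) was hybridised on 3 two-colour arrays, per the labels. The authors deposited 1 log ratio per spot and array, handled here as a ratio on a log scale, log2 or natural log. For the base, direction, scanner software, background correction and normalization, nothing is stated in the labels or the table, and channel intensities were not analysed here. The values ran between −6.77 and 1.45, with array medians over genes of −2.11, −2.30 and −1.59.

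Of 13056 spots, 11138 had 1 gene symbol in the platform annotation, 0 had several and 1918 had none. Of the 5539 genes, 5534 matched the RefSeq table (R64), used for locus names, lengths and gene order. Spots of a gene were averaged, and the median over genes was subtracted from each array. In limma 3.58.1 (R 4.3.3), an intercept was fitted with lmFit and tested two-sided against 0 with eBayes, and p-values were adjusted over all genes (Benjamini-Hochberg, threshold 0.05). The fit was also run on simulated data with independent normal errors and variances drawn from the prior fitted to these arrays. That run could not test effects outside this model, such as the scatter trend or print blocks. Scatter between repeated spots is the root of the mean spot variance over arrays. Sequences were not analysed here, so the planned protein identities are not given.

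The members, lists and tests were chosen with earlier results of these data known. Named are all members, YAP1, the measured aldo-keto reductases, called Ehrlich genes (at most 8), the nearest measured neighbours on each side, and the 2 genes nearest to each called member. SNZ2, SNZ3, HXT15 and HXT16 were named outside this rule after their values were seen, for their place, and SNZ2 and HXT16 also as called neighbours. Alternatives were the centring, the spots used, the scaling, the filter on noisy genes, the variance prior, leaving out each array and removal of the scatter trend, the last chosen after seeing the data.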

Additional observations from a re-analysis of the deposited data

How the results depend on the processing

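AAD4 stayed on the high side and past the threshold in 12 of 13 alternatives, at 1.68 to 2.83, and lay at −0.19 with no centring. With no centring AAD3 (−2.21), AAD6 (−2.41) and AAD10 (−2.68) were called low, and 5 members, 5260 genes, 7 aldo-keto reductases, 15 Ehrlich genes and 18 neighbours passed. Against the spots without a gene symbol AAD3 (0.82), AAD6 (0.62), AAD10 (0.35) and AAD14 (0.39) changed side, AAD15 (−0.17) was no longer called, and 4180 genes (4170 high, 10 low), 1 aldo-keto reductase (high), 18 Ehrlich genes (all high) and 8 neighbours (all high) passed, with 0 of the aldo-keto reductase and neighbour calls shared with those against the array median. AAD14 lost its call when centred over all spots (−0.60), with first spots (−0.65) and with second spots (−0.69). AAD10 was called with block centring (−0.71), second spots (−0.92) and a trend in the variance prior (−0.68). First spots gave 1014 genes and 1 neighbour. The removed scatter trend gave 1095 genes (585 high, 510 low) and 3 neighbours (1 high, 2 low). Of these 3 neighbours, 2 were among the 7 called without that removal. Leaving out 1 array gave ranges of 0.034 (without replicate 1) to −0.48 for AAD3, −0.52 to −1.001 for AAD10, −0.60 to −0.70 for AAD14 and −0.94 to −1.42 for AAD15. Counts then ranged from 1 to 3 members, 323 to 1443 genes, 0 to 2 aldo-keto reductases, 5 to 10 Ehrlich genes and 0 to 4 neighbours. The cause was not tested. With 2 arrays the spread of a gene rests on 1 difference and on the prior. Of 15 pairs of members, 8 to 12 kept 1 sign over the arrays. Mutant and wild type were paired within each array by the log ratio itself. No further pairing was possible because the series holds a single group of arrays. How far any spot stood over its background could not be examined without intensities.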
